A study of Mus musculus with 9 samples.

Results

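LF3 was set against its solvent DMSO after 24 h in mouse salivary gland cancer stem cells, using 6 of the 9 bead arrays of the series. The members were the 3 arrays titled LF3 and the 3 titled DMSO, with every gene that was detected. The cells came from C57BL/6 mice, were isolated as primary cells and grew in a medium with serum replacement in both groups, so nothing but the added compound differs between them in the labels. The 3 remaining arrays, of cells given ICG-001 for 24 h, entered the fit and no comparison. Doses are not given, and the labels do not say whether the 3 arrays of a group came from separate cultures, so the spread behind the p-values may be technical. Nor do they give the number of animals or isolates behind the cultures.

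LF3 is known as a small molecule that blocks the binding of β-catenin to TCF4, the transcription factor encoded by Tcf7l2. In the canonical Wnt pathway, stabilised β-catenin enters the nucleus and activates genes to which TCF/LEF factors are bound. Such signalling is known for its part in the self-renewal of epithelial stem cells and of tumour cells with stem cell traits.

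Levels below are normalized log2 intensities, in which a step of 1 is a doubling of signal. A gene passed where the difference had a limma adjusted p under 0.05, and a probe was detected on an array where its detection p was under 0.01. Of 16593 genes with a named probe, 7354 could be tested and 6518 were detected on all 6 arrays. The number of arrays limits the precision, with a median standard error of 0.135 for a log2 difference. The brightness of probes differs between genes, so levels are compared within a gene.

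LF3 arrays had a mean signal of 340.0 to 396.5 and detected 9939 to 10637 of 25697 probes, and DMSO arrays had 398.2 to 467.3 and detected 10204 to 10897. Normalized values correlated across probes at 0.9873 to 0.9926 among LF3 arrays, at 0.9876 to 0.9942 among DMSO arrays and at 0.9714 to 0.9835 between the groups. Quantile normalization sets such differences in mean signal to 0. With the arrays scaled to 1 median instead, the median log2 difference over all genes was -0.24, and counts under that scaling are given beside the gene groups below.

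Markers were set against the label of the cells. Of 17 acinar markers with a probe, 14 went undetected throughout the 6 arrays, and the same held for 12 of 17 ductal and luminal markers, among them Krt7, Krt18 and Krt19, and for 10 of 15 basal and myoepithelial markers, among them Krt5, Krt14 and Trp63. Aqp5, the water channel of acinar cells, was bright at 11.61, 11.65 and 11.55 on the LF3 arrays, against 11.60, 11.97 and 11.86 on the DMSO arrays, and the difference did not pass (limma adjusted p = 0.248). Most markers in these 3 lists were thus not detected on any of the 6 arrays. Others were measured, namely Slc12a2 and Xbp1 beside Aqp5 in the acinar list. In the ductal and luminal list they were Krt8, Elf3, Cldn7 and Wfdc2, and in the basal and myoepithelial list Itga6, Itgb4, Mylk and Ngfr.

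The transcripts of both proteins that LF3 keeps apart were detected. Tcf7l2 stood at 5.90, 5.70 and 5.62 on the LF3 arrays, against 6.05, 6.25 and 6.27 on the DMSO arrays. All 3 LF3 arrays were lower than all 3 DMSO arrays, on average by 0.45 ± 0.12 on the log2 scale (SE, limma adjusted p = 0.02). Ctnnb1, which encodes β-catenin, stood at 11.70, 11.91 and 11.45 on the LF3 arrays, against 11.89, 11.96 and 12.08 on the DMSO arrays, groups that overlapped, with a difference of -0.29 ± 0.16 that did not pass (limma adjusted p = 0.206). These 2 genes were chosen after their values were seen.

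In all, 1645 of 7354 genes passed (22.4%), 810 of them higher with LF3 (11%) and 835 lower (11.4%). At least 2-fold changes were fewer, at 51 genes higher (0.694%) and 50 lower (0.68%). The LF3 and DMSO arrays did not overlap for 2705 genes (36.8%). The count of 1645 changed when 1 array was left out. It came to 872 without DMSO array 2, 923 without DMSO array 3 and 1019 without LF3 array 2. Without LF3 array 1, LF3 array 3 or DMSO array 1 it came to 1365, 1401 or 1877. The part of the smaller number of arrays in these counts was not tested. Under median scaling the split was 203 higher and 2140 lower of 7354 genes. That split is the background for the median scaling counts of each list below. The background for the main counts of each list is 11% higher and 11.4% lower.

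Among the largest rises, Cox6a2, a subunit of mitochondrial cytochrome c oxidase typical of heart and skeletal muscle, stood first at 8.16, 8.60 and 8.88 on the LF3 arrays, against 5.58, 5.41 and 5.29 on the DMSO arrays. The DMSO arrays lay near the detection limit, 2 of the 3 detecting it, and the LF3 arrays were all far above, an 8.67-fold difference (limma adjusted p = 6.74e-08). Fa2h, the enzyme that adds a hydroxyl group to the fatty acids of sphingolipids, stood at 7.96, 8.25 and 8.36 on the LF3 arrays, against 5.29, 5.45 and 5.49 on the DMSO arrays. The groups were wide apart with little spread in either, and the fold was 6.89 (limma adjusted p = 6.74e-08). Cdsn, which encodes corneodesmosin, an adhesion protein of the outer epidermis, stood at 9.26, 9.33 and 9.73 on the LF3 arrays, against 7.45, 7.02 and 7.00 on the DMSO arrays. It was 4.86-fold higher (limma adjusted p = 1.41e-06), and its other probe also rose, by 1.38 on the log2 scale. Rbm15, an RNA-binding protein that guides N6-methyladenosine marking of RNA, stood at 8.48, 8.78 and 8.70 on the LF3 arrays, against 6.88, 6.55 and 6.40 on the DMSO arrays, 4.12-fold higher (limma adjusted p = 1.41e-06). Ptgs2, the inducible cyclooxygenase of prostaglandin synthesis, was detected on 3 LF3 arrays and on 1 DMSO array, at 6.75, 7.04 and 6.77 on the LF3 arrays, against 5.12, 5.09 and 5.16 on the DMSO arrays (limma adjusted p = 1.41e-06). The other 7 of the 12 largest rises were Ddit3, Fgf21, Gsta4, Gadd45a, Gsta1, Gsta2 and Inhba, described with their families below.

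The largest fall was of Angptl4, a secreted inhibitor of lipoprotein lipase, at 8.51, 7.82 and 8.04 on the LF3 arrays, against 9.90, 10.10 and 10.06 on the DMSO arrays. All LF3 arrays lay more than 1 log2 step below all DMSO arrays, and the level was 3.74-fold lower (limma adjusted p = 5.07e-06). Ppl, which encodes periplakin, a linker of desmosomes to intermediate filaments, stood at 5.75, 5.25 and 5.45 on the LF3 arrays, against 6.92, 7.26 and 7.10 on the DMSO arrays, 3.05-fold lower (limma adjusted p = 1.71e-05), whereas its other probe gave a difference of 0.30 that did not pass. Rgcc, a regulator of the cell cycle induced by complement, stood at 5.25, 5.23 and 4.59 on the LF3 arrays, against 6.56, 6.47 and 6.51 on the DMSO arrays, with only 1 of 3 LF3 arrays detecting it (limma adjusted p = 4.68e-05). Plvap, a protein of the diaphragms of endothelial fenestrae, stood at 6.94, 6.61 and 6.71 on the LF3 arrays, against 7.86, 8.25 and 8.32 on the DMSO arrays, 2.62-fold lower (limma adjusted p = 7.42e-05). Gbp2, an interferon-induced GTPase, stood at 5.71, 5.57 and 5.71 on the LF3 arrays, against 7.06, 6.88 and 7.08 on the DMSO arrays, again with no overlap and 2.54-fold lower (limma adjusted p = 0.000233). Nt5c2, a cytosolic nucleotidase, fell by 1.34 on its brightest probe, with differences of -0.30 and -0.79 on its 2 other probes. Zc3h12d fell by 1.39 and Denn2b by 1.34 on the log2 scale. Cxcl12, Cx3cl1, Bhlhe40 and Mgat3 complete the 12 and are described below. Mgat3 is there by its measured difference of -1.45, but no LF3 array detected it and only its bound, at least 1.73-fold lower, holds. All 24 of the largest changes kept their call in every alternative setting that tested them, median scaling and the removal of any 1 array included, except that Mgat3 was not tested with a DMSO array left out.

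**Figure D1:**
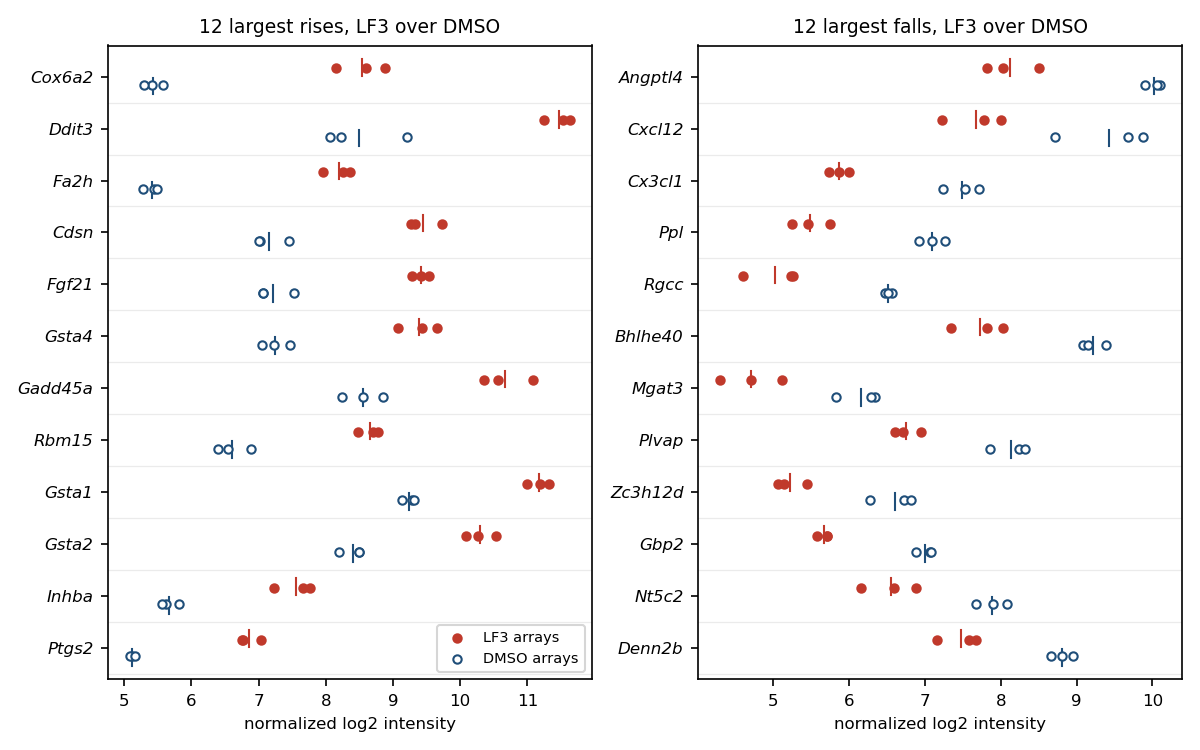
Normalized log2 intensity (horizontal axis) of the 12 genes with the largest rise and the 12 with the largest fall, LF3 over DMSO. Filled points are the LF3 arrays, open points below them the DMSO arrays, 3 each, and ticks mark group means. No gene shown has overlapping groups, and Cox6a2 has the widest gap, with LF3 at 8.16 to 8.88 and DMSO at 5.29 to 5.58.

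Summed levels of several marker lists did not overlap between the groups, as was the case for 36.8% of all genes taken singly. The sums of 2 lists did overlap. The 3 measured acinar markers summed to 12.38 to 12.52 with LF3 and 12.43 to 12.72 with DMSO. Hba-a1, the 1 red blood cell marker measured, stood at 6.11 to 6.64 with LF3 and 6.11 to 6.41 with DMSO. Of 4 endothelial markers measured, Plvap, Flt1 and Tie1 were lower. The Flt1 groups overlapped, and 1 of 3 LF3 arrays detected it. No LF3 array detected Tie1, and its call was lost in 5 of 14 alternative settings. The summed level of the 4 was 7.66 to 7.94 with LF3 and 8.57 to 8.86 with DMSO. Of 13 endothelial markers with a probe 9, Pecam1, Cdh5 and Kdr among them, went undetected. Of 5 fibroblast markers measured, Vim and S100a4 were lower (the S100a4 call lost in 5 alternative settings), at a summed level of 12.41 to 12.64 with LF3 and 13.08 to 13.18 with DMSO, and 9 of 14, Col1a2, Col3a1 and Dcn among them, were not detected. The 4 measured basal markers summed to 10.13 to 10.37 with LF3 and 10.50 to 10.79 with DMSO, with Mylk and Ngfr lower, the Ngfr call lost in 4 alternative settings. The 4 measured ductal and luminal markers summed to 11.77 to 12.02 with LF3 and 12.41 to 12.65 with DMSO. Wfdc2 was lower on its brightest probe and Cldn7 higher, the Cldn7 call (limma adjusted p = 0.0494) lost in 12 of 17 alternative settings. Of 15 macrophage and leukocyte markers 12 were not detected on the 6 arrays. The 4 measured, none of which passed, summed to 11.84 to 12.15 with LF3 and 12.21 to 12.37 with DMSO. They include Cd74, which is also 1 of the 12 and was kept through the ICG-001 arrays alone. Of the squamous list 17 of 21 were not detected, and the sum of Cdsn and Krt10 was 10.43 to 10.63 with LF3 and 9.73 to 9.81 with DMSO. In bulk samples fewer cells of a type and less RNA per cell cannot be told apart, and the part of cell makeup in the results was not tested.

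The region before the transcription start was read for short motifs, since LF3 is aimed at a DNA-bound factor. The RefSeq promoter windows (GRCm38.p6, 250 bases before to 50 after the start) matched 38 of the 51 genes at least 2-fold higher and 42 of the 50 at least 2-fold lower. The core of the TCF/LEF site, CTTTGAT on either strand, was found in 0 of 38 windows of the higher genes and in 5 of 42 windows of the lower genes (11.9%), while 2.6% of 6079 windows of measured genes and 3.72% of all 27025 windows held it. A match is a description of letters and shows no binding. The 250 bases before the start of the 5 genes with a match are printed because they hold the letters that TCF4 is known to bind, in capitals (ATCAAAG where the match is on the opposite strand).
Cxcl12, chr6:117168285-117168534, plus strand: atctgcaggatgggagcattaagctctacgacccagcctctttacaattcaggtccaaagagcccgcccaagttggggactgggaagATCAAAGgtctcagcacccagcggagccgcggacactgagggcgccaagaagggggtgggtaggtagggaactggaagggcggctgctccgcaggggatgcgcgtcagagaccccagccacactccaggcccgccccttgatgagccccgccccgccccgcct
Car9, chr4:43506776-43507025, plus strand: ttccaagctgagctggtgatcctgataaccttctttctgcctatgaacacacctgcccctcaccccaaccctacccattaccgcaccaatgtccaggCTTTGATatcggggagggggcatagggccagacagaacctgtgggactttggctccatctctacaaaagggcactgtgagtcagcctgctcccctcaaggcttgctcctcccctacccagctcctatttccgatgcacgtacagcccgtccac
H2ac7, chr13:23574131-23574380, plus strand: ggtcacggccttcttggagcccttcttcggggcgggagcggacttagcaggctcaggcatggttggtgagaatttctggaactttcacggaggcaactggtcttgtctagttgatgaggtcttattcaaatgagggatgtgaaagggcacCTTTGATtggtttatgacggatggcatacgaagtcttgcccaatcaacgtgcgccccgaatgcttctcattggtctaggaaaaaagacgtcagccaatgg
Tmem176a, chr6:48841233-48841482, plus strand: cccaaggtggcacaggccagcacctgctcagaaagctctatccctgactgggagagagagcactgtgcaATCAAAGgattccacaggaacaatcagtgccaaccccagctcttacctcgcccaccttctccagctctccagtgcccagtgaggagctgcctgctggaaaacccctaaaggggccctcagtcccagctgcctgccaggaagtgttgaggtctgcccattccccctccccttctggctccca
Tmem62, chr2:120976812-120977061, plus strand: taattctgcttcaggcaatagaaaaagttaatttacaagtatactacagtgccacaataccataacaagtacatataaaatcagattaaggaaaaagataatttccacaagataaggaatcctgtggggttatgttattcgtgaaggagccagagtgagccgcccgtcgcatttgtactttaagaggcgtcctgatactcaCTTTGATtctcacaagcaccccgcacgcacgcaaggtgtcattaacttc

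The match lay 163 to 157 bases before the start in Cxcl12, 153 to 147 in Car9, 100 to 94 in H2ac7, 181 to 175 in Tmem176a and 49 to 43 in Tmem62. Apart from Cxcl12 these genes were named for the match and not for their rank. Car9, a carbonic anhydrase of the cell surface that is induced in hypoxia, stood at 8.12, 6.67 and 7.33 on the LF3 arrays, against 8.19, 8.91 and 8.72 on the DMSO arrays. It was lower on every LF3 array than on any DMSO array, but the first LF3 array came close to the first DMSO array, and the fold was 2.35 (limma adjusted p = 0.0161). Tmem176a, a transmembrane protein, stood at 7.76, 7.21 and 7.63 on the LF3 arrays, against 8.45, 8.99 and 9.03 on the DMSO arrays, a clear gap of 2.44-fold (limma adjusted p = 0.00028). H2ac7, a replication-dependent histone H2A gene, stood at 12.50, 11.89 and 11.54 on the LF3 arrays, against 13.31, 13.00 and 12.71 on the DMSO arrays, and Tmem62 at 5.34, 5.07 and 5.65 on the LF3 arrays, against 6.23, 6.79 and 6.39 on the DMSO arrays. Tmem62 was near the detection limit with LF3. On the second LF3 array it lay below the lowest detected signal of that array, 5.47, so the size of its fall is uncertain.

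The other motifs read in the same windows were present as follows, higher genes before lower genes and then all measured genes. ACGTG, the core of the hypoxia response element, was in 36.8%, 40.5% and 27.5% of windows, and the E-box CACGTG, which contains it, in 21.1%, 11.9% and 10.8%. The AP-1 site TGANTCA was in 15.8%, 7.14% and 4.97%, the composite C/EBP-ATF core TGATGNAA in 5.26%, 2.38% and 2.29%, the antioxidant response core TGACNNNGC in 13.2%, 4.76% and 14.8%, and the NF-Y box CCAAT in 39.5%, 28.6% and 40.1%. All were read on both strands.

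Of 136 measured secreted genes 22 were higher (16.2%) and 17 lower (12.5%), beside 11% and 11.4% of all genes. Growth factors made up 10 of these calls, with 7 of 21 higher and 3 lower (2 higher and 7 lower under median scaling, and 3 to 6 higher and 2 to 3 lower with 1 array left out). Fgf21, a hormone that acts on metabolism and is known as a target of ATF4, stood at 9.28, 9.54 and 9.42 on the LF3 arrays, against 7.53, 7.06 and 7.07 on the DMSO arrays, 4.59-fold higher (limma adjusted p = 1.41e-06). Hbegf, a ligand of the EGF receptor, stood at 7.89, 7.97 and 8.02 on the LF3 arrays, against 7.19, 6.83 and 6.77 on the DMSO arrays. Its LF3 arrays agreed within a narrow range above all DMSO arrays, 2.05-fold higher (limma adjusted p = 0.000162). Fgf7, the keratinocyte growth factor made by mesenchymal cells, moved the other way, at 9.13, 8.83 and 8.79 on the LF3 arrays, against 9.45, 9.85 and 10.09 on the DMSO arrays, 1.85-fold lower (limma adjusted p = 0.00175). Of the other growth factors that passed, chosen after their values were seen, Bdnf rose by 0.62 and Btc, another EGF receptor ligand, by 0.59 on the log2 scale, and Csf3 was detected on 3 DMSO arrays and no LF3 array, at least 1.12-fold lower (limma adjusted p = 0.0113).

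Ligands and antagonists of the TGF-β superfamily had 3 of 12 higher and 1 lower (3 higher and 3 lower under median scaling). Inhba, the subunit that forms activin A, stood at 7.66, 7.76 and 7.23 on the LF3 arrays, against 5.63, 5.82 and 5.57 on the DMSO arrays. The gap exceeded 1 log2 step and the fold was 3.68 (limma adjusted p = 6.04e-06). Grem1, a secreted antagonist of BMP ligands, was detected on all LF3 arrays and no DMSO array, at 6.04, 6.00 and 6.27 on the LF3 arrays, against 4.67, 4.82 and 4.84 on the DMSO arrays, at least 1.83-fold higher (limma adjusted p = 2.06e-05). Ltbp4, which binds latent TGF-β in the matrix, rose by 0.91 on its brightest probe, while its 2 other probes gave -0.09 and 0.40, neither past the test. Tgfb3 was at 5.22, 4.57 and 5.01 on the LF3 arrays, against 5.27, 5.49 and 5.37 on the DMSO arrays (limma adjusted p = 0.0491), with 1 of 3 LF3 arrays detecting it, a call lost in 11 alternative settings.

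Chemokines were the secreted family with the lowest median difference among those of at least 10 measured genes, -0.31 on the log2 scale beside 0.01 for all genes, with 1 of 12 higher and 4 lower (0 higher and 6 lower under median scaling). Cx3cl1, which as fractalkine both tethers and attracts leukocytes, stood at 6.00, 5.74 and 5.87 on the LF3 arrays, against 7.23, 7.53 and 7.71 on the DMSO arrays. The groups were more than 1 log2 step apart, a 3.08-fold fall (limma adjusted p = 8.56e-06). Cxcl12, the ligand of the receptor Cxcr4, stood at 8.01, 7.23 and 7.78 on the LF3 arrays, against 8.71, 9.88 and 9.68 on the DMSO arrays, a 3.37-fold fall with wide spread in both groups (limma adjusted p = 0.00044). Its 2 other probes gave smaller differences of -0.66 and -0.58, the second short of the threshold. Cxcl5, a neutrophil attractant, stood at 6.55, 6.11 and 5.16 on the LF3 arrays, against 7.02, 6.95 and 7.01 on the DMSO arrays, the third LF3 array far below the others and not detecting it. Pf4 was detected on no LF3 array and 3 DMSO arrays and was at least 1.09-fold lower (limma adjusted p = 0.0203), a call lost in 5 of 14 alternative settings, among them the removal of LF3 array 2 or 3. The 1 chemokine that rose was Cxcl1, another neutrophil attractant, 13.73 ± 0.17 with LF3 and 13.29 ± 0.17 with DMSO (SD, n = 3, limma adjusted p = 0.0311), named after its value was seen.

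Interleukins and related cytokines showed 3 of 13 higher and 0 lower (2 higher and 3 lower under median scaling). Il11, a cytokine of the IL-6 family, stood at 6.31, 6.02 and 6.55 on the LF3 arrays, against 5.30, 5.55 and 5.32 on the DMSO arrays, 1.87-fold higher (limma adjusted p = 0.00111). Clcf1, a further member that signals through the CNTF receptor, stood at 6.89, 7.07 and 7.07 on the LF3 arrays, against 6.12, 6.07 and 5.86 on the DMSO arrays, 1.99-fold higher with no overlap (limma adjusted p = 0.000109). Il23a was detected on 2 LF3 arrays and no DMSO array, and its call was lost in 8 alternative settings.

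Proteases and matrix genes follow. Adamts1, a metalloprotease that cleaves proteoglycans, was detected on 3 LF3 arrays and 1 DMSO array, at 5.81, 6.25 and 6.11 on the LF3 arrays, against 5.25, 4.96 and 5.11 on the DMSO arrays (limma adjusted p = 0.000936). Htra1, a secreted serine protease, stood at 11.97, 12.37 and 11.97 on the LF3 arrays, against 11.62, 10.89 and 10.94 on the DMSO arrays, 1.93-fold higher (limma adjusted p = 0.00315). Mmp11, stromelysin 3, rose by 0.67 with its call lost under median scaling. P4ha2 and Plod2, which hydroxylate proline and lysine in collagen, fell by 1.00 and 0.64 on the log2 scale, P4ha2 with 1 of 3 LF3 arrays detecting it and Plod2 with overlapping groups and a call lost in 5 alternative settings. None of 9 measured collagens and none of 7 laminins and basement membrane genes passed, beside 22.4% of all genes. Under median scaling 6 and 2 were lower, beside 2140 of all 7354 genes. Among 9 other protease inhibitors 0 were higher and 3 lower (0 higher and 3 lower under median scaling). Wfdc2, a secreted protein of glandular ducts, fell by 0.71 ± 0.12 on its brightest probe (SE, limma adjusted p = 0.00142). The other Wfdc2 probe gave -0.41 with overlapping groups and did not pass (limma adjusted p = 0.0783).

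**Figure D2:**
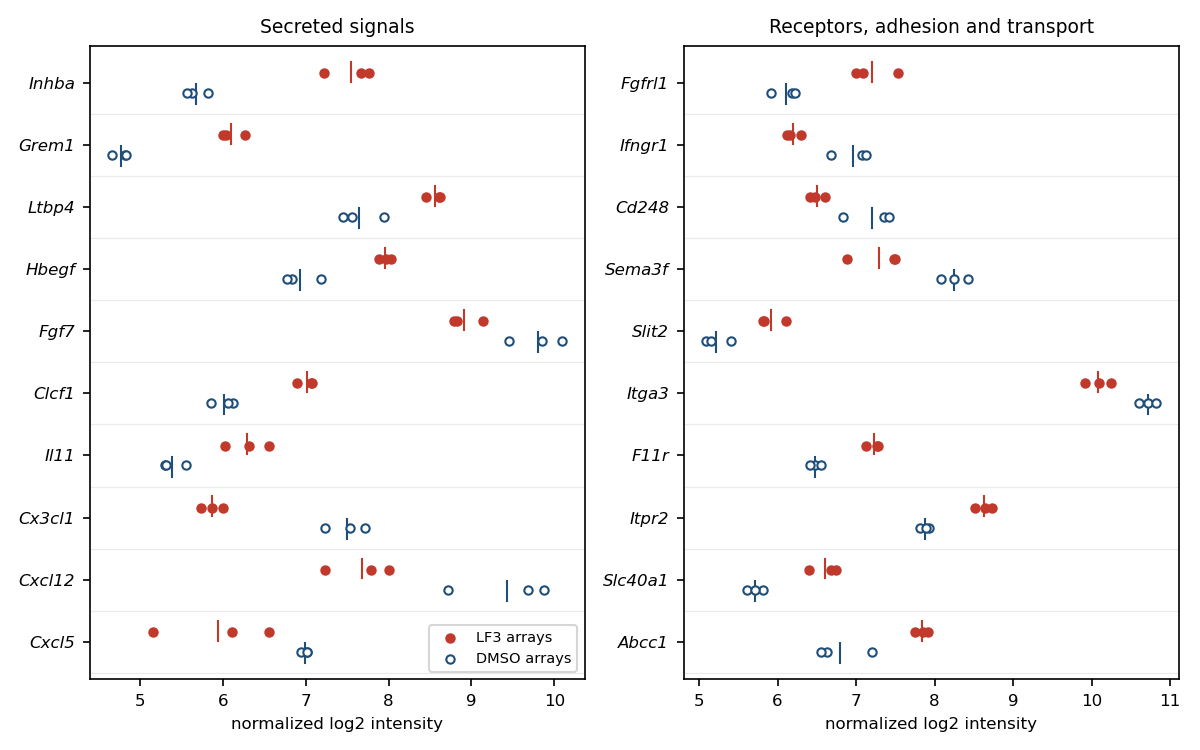
Normalized log2 intensity (horizontal axis) of 10 secreted signals (left) and 10 receptors, adhesion and transport genes (right). Filled points are the LF3 arrays, open points the DMSO arrays, 3 each, with ticks at group means. Inhba and Grem1 lie well to the right with LF3, Cx3cl1 and Cxcl12 to the left.

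At the cell surface 37 of 325 measured genes were higher (11.4%) and 34 lower (10.5%), close to the shares of all genes. Receptor tyrosine kinases had 1 of 14 higher and 5 lower (1 higher and 8 lower under median scaling, and 1 higher and 1 to 4 lower with any 1 array left out). Fgfrl1, an FGF receptor without a kinase domain, was the 1 that rose, at 7.08, 7.00 and 7.53 on the LF3 arrays, against 5.92, 6.19 and 6.22 on the DMSO arrays, 2.14-fold (limma adjusted p = 0.00039). Alk and Tie1 were detected on 3 DMSO arrays and no LF3 array, with falls of at least 1.24-fold and 1.08-fold (limma adjusted p = 0.00853 and 0.025). The Tie1 call was lost in 5 of 14 alternative settings, the 6 arrays alone and the removal of LF3 array 1 among them. Igf1r, the receptor of insulin-like growth factor 1, fell by 0.57, a call lost in 5 alternative settings. Ifngr1, a chain of the interferon-γ receptor, stood at 6.15, 6.29 and 6.12 on the LF3 arrays, against 6.68, 7.07 and 7.13 on the DMSO arrays and was the 1 of 15 cytokine receptors that passed, 1.7-fold lower (limma adjusted p = 0.00141).

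Of 21 semaphorins, plexins and other guidance genes 2 were higher (9.52%) and 2 lower (9.52%), beside 11% and 11.4% of all genes. Integrins had 1 of 10 higher and 2 lower, and tight and gap junction genes 2 of 10 higher and 1 lower. Itga3, the integrin chain that pairs with β1 to bind laminin, stood at 10.24, 10.10 and 9.91 on the LF3 arrays, against 10.72, 10.61 and 10.82 on the DMSO arrays. It was lower on every LF3 array, 1.55-fold (limma adjusted p = 0.00293). Itga5, the fibronectin-binding chain, rose by 0.45 on its brightest probe and differed by -0.01 on the other, a call lost without DMSO array 2 and under median scaling. F11r, the junctional adhesion molecule A of tight junctions, stood at 7.27, 7.28 and 7.12 on the LF3 arrays, against 6.47, 6.41 and 6.55 on the DMSO arrays, 1.67-fold higher (limma adjusted p = 0.000935), and Gjc1, a connexin, fell by 0.64. Sema3f, a secreted repellent for axons and vessels, stood at 7.49, 7.48 and 6.88 on the LF3 arrays, against 8.08, 8.42 and 8.24 on the DMSO arrays, 1.95-fold lower (limma adjusted p = 0.00105), while Slit2, the ligand of Robo receptors, rose by 0.70, detected on 3 LF3 arrays and 1 DMSO array. Cd248, endosialin, a marker of stromal and perivascular cells, fell by 0.70 (limma adjusted p = 0.00512). Ngfr, a marker of basal cells, was detected on no LF3 array and 3 DMSO arrays, at least 1.06-fold lower (limma adjusted p = 0.0316).

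Among 39 G protein-coupled receptors 5 were higher and 4 lower (1 higher and 10 lower under median scaling). Mrgprf, an orphan receptor, fell by 0.87 and Gpr137b, a lysosomal membrane protein, rose by 0.84 (limma adjusted p = 0.000943 and 0.00128). The Wnt receptors Fzd2 and Fzd6 were chosen after their values were seen, because they were lower, as were 11.4% of all genes. Other Wnt receptors are not described here, so nothing is read about the family. Fzd2 stood at 5.59, 5.17 and 5.10 on the LF3 arrays, against 5.68, 6.49 and 6.00 on the DMSO arrays, with 1 LF3 array detecting it (limma adjusted p = 0.011). Fzd6 stood at 5.47, 5.55 and 5.53 on the LF3 arrays, against 5.75, 5.95 and 6.32 on the DMSO arrays, lower on all LF3 arrays (limma adjusted p = 0.0246). Among ion channels and aquaporins, Itpr2, a calcium release channel of the endoplasmic reticulum, stood at 8.73, 8.51 and 8.64 on the LF3 arrays, against 7.82, 7.93 and 7.89 on the DMSO arrays, 1.68-fold higher (limma adjusted p = 0.00108). Kcnh2, a potassium channel, rose by 0.66, and Chrnb1, a subunit of the muscle nicotinic receptor, fell by 0.99 on its brightest probe, with a difference of -0.30 that did not pass on the other.

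Transporters included 4 ABC genes higher and 0 lower of 16 measured (1 higher and 4 lower under median scaling) and 14 solute carriers higher and 10 lower of 111 (5 higher and 28 lower under median scaling). Abcc1, the multidrug resistance protein that exports glutathione conjugates, stood at 7.86, 7.91 and 7.75 on the LF3 arrays, against 7.20, 6.63 and 6.55 on the DMSO arrays. It was 2.07-fold higher with the first DMSO array above the other DMSO arrays (limma adjusted p = 0.0006). Slc7a11, the cystine importer that feeds glutathione synthesis, stood at 10.77, 10.86 and 10.76 on the LF3 arrays, against 9.93, 9.73 and 9.90 on the DMSO arrays, 1.92-fold higher (limma adjusted p = 9.59e-05). Slc40a1, the iron exporter ferroportin, stood at 6.74, 6.68 and 6.40 on the LF3 arrays, against 5.61, 5.81 and 5.71 on the DMSO arrays, 1.86-fold higher (limma adjusted p = 0.000921). Slc25a33, a mitochondrial carrier of pyrimidine nucleotides, was the transporter with the largest rise of the 111, at 10.19, 10.44 and 10.45 on the LF3 arrays, against 9.17, 8.40 and 8.52 on the DMSO arrays, 3.16-fold (limma adjusted p = 4.09e-05). Slc39a11, a zinc transporter, rose by 0.83.

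Transcription and chromatin genes passed in 45 of 426 cases upward (10.6%) and 55 downward (12.9%), again near the background. Basic leucine zipper factors had 8 of 22 higher and 1 lower (3 higher and 5 lower under median scaling, and 5 to 6 higher and 0 to 3 lower with 1 array left out), and their median difference was 0.02 beside 0.01 for all genes. Ddit3, the stress factor CHOP, led them at 11.25, 11.53 and 11.63 on the LF3 arrays, against 9.21, 8.22 and 8.06 on the DMSO arrays, 7.87-fold higher with the first DMSO array above the other 2 (limma adjusted p = 2.63e-06). Nfe2l1, which activates proteasome and antioxidant genes, stood at 12.04, 11.98 and 11.97 on the LF3 arrays, against 11.38, 11.22 and 11.23 on the DMSO arrays, 1.65-fold higher (limma adjusted p = 0.000566). Dbp and Nfil3, which bind the same D-box sites of clock output genes as an activator and a repressor, rose by 0.60 and 0.56, both calls lost under median scaling.

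Of 24 basic helix-loop-helix factors 3 were higher (12.5%) and 3 lower (12.5%), beside 11% and 11.4% of all genes (0 higher and 8 lower under median scaling). Bhlhe40, a repressor in the circadian clock that also responds to hypoxia, stood at 8.02, 7.35 and 7.81 on the LF3 arrays, against 9.09, 9.39 and 9.16 on the DMSO arrays. All LF3 arrays lay below all DMSO arrays by more than 1 log2 step, and the fold was 2.8 (limma adjusted p = 0.000553). Id2, an inhibitor of this family, fell by 0.77 ± 0.17 (SE, limma adjusted p = 0.00583). Hif1a and Arnt, which together form hypoxia-inducible factor 1, were higher by 0.48 and 0.54 (limma adjusted p = 0.0187 and 0.01), calls that were lost under median scaling, and for Hif1a also on leaving out DMSO array 2 or LF3 array 2.

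The STAT, IRF, NF-κB and NFAT factors showed 0 higher and 4 lower of 15 (0 higher and 6 lower under median scaling). Irf1, an activator of interferon-responsive genes, stood at 9.59, 9.29 and 9.38 on the LF3 arrays, against 10.61, 10.67 and 10.56 on the DMSO arrays. The groups were far apart and tight, 2.29-fold lower (limma adjusted p = 2.09e-05), and its 4 other probes all fell. Nfatc1, a calcineurin-dependent factor, stood at 7.38, 6.68 and 6.98 on the LF3 arrays, against 7.57, 7.71 and 7.96 on the DMSO arrays, 1.66-fold lower (limma adjusted p = 0.00796). Stat6, which acts downstream of interleukin-4, fell by 0.56, and Rela, a subunit of NF-κB, by 0.35, calls lost in 3 and 6 alternative settings.

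Homeobox factors passed in 4 cases upward and 6 downward of 28 (0 higher and 12 lower under median scaling, and 1 to 4 higher and 2 to 7 lower with 1 array left out). Zhx1, a repressor with zinc fingers and homeodomains, stood at 7.57, 7.24 and 7.22 on the LF3 arrays, against 8.19, 8.30 and 8.60 on the DMSO arrays, 2.03-fold lower (limma adjusted p = 0.000464). Hoxa5, a positional factor, stood at 8.29, 8.11 and 8.17 on the LF3 arrays, against 8.62, 9.15 and 9.13 on the DMSO arrays, and Dlx3, a factor of epidermal and hair differentiation, at 7.12, 6.86 and 7.30 on the LF3 arrays, against 7.38, 8.16 and 8.07 on the DMSO arrays. Both were lower on all LF3 arrays, with the first DMSO array nearest to them in each case, and the Dlx3 call was lost in 4 alternative settings. Among ETS factors Ets2 rose by 0.64, a call lost under median scaling, and Etv1 stood at 6.63, 6.19 and 5.71 on the LF3 arrays, against 7.00, 7.47 and 7.03 on the DMSO arrays, 1.98-fold lower with a wide LF3 spread (limma adjusted p = 0.00466).

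Tead4, a DNA-binding partner of YAP and TAZ, stood at 8.15, 8.37 and 8.68 on the LF3 arrays, against 7.60, 7.20 and 7.42 on the DMSO arrays. It was 1.99-fold higher (limma adjusted p = 0.000654), with differences of 0.81 and 0.39 on its 2 other probes, the second not past the test. Smad3, which carries the signal of TGF-β and activin receptors, stood at 6.51, 6.08 and 6.37 on the LF3 arrays, against 6.82, 7.28 and 7.33 on the DMSO arrays, 1.77-fold lower (limma adjusted p = 0.00445). In this mixed list Tead4 was the 1 of 19 that rose and 4 fell (1 higher and 8 lower under median scaling). Klf5, a factor of proliferating epithelium, rose by 0.69 and Klf3, a repressor, fell by 0.77 (limma adjusted p = 0.00337 and 0.00246). Zbtb18, a transcriptional repressor, stood at 9.24, 9.31 and 8.86 on the LF3 arrays, against 8.36, 8.02 and 8.13 on the DMSO arrays, with differences of 0.98, 0.71 and 0.07 on its 3 other probes. Among nuclear receptors Rxra, the common partner of many of them, rose by 0.76 ± 0.15 (SE, limma adjusted p = 0.003). Foxa1, a pioneer factor of glandular epithelium, was detected on no LF3 array and on 2 DMSO arrays, at 4.66, 4.75 and 4.69 on the LF3 arrays, against 5.45, 5.36 and 5.28 on the DMSO arrays (limma adjusted p = 0.00142).

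Chromatin modifiers and remodellers had 8 of 72 higher and 14 lower (2 higher and 29 lower under median scaling). Smarce1, a subunit of the BAF remodelling complex, stood at 8.40, 8.58 and 8.59 on the LF3 arrays, against 9.56, 9.60 and 9.39 on the DMSO arrays, 2.00-fold lower (limma adjusted p = 9.33e-05), and its other probe fell by 1.03. Sirt1, an NAD-dependent deacetylase, stood at 7.01, 7.43 and 6.84 on the LF3 arrays, against 7.82, 8.15 and 8.22 on the DMSO arrays, 1.97-fold lower (limma adjusted p = 0.00125). Dnmt3l, the regulatory partner of the de novo DNA methyltransferases, stood at 6.97, 7.06 and 6.84 on the LF3 arrays, against 6.20, 5.93 and 5.85 on the DMSO arrays, 1.95-fold higher (limma adjusted p = 0.000182). Setd6, a lysine methyltransferase, rose by 0.69. Of 152 numbered zinc finger proteins 10 were higher and 12 lower (1 higher and 39 lower under median scaling), with Zfp207, a protein of the mitotic spindle, down by 1.07 and Zfp692 up by 0.81.

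**Figure D3:**
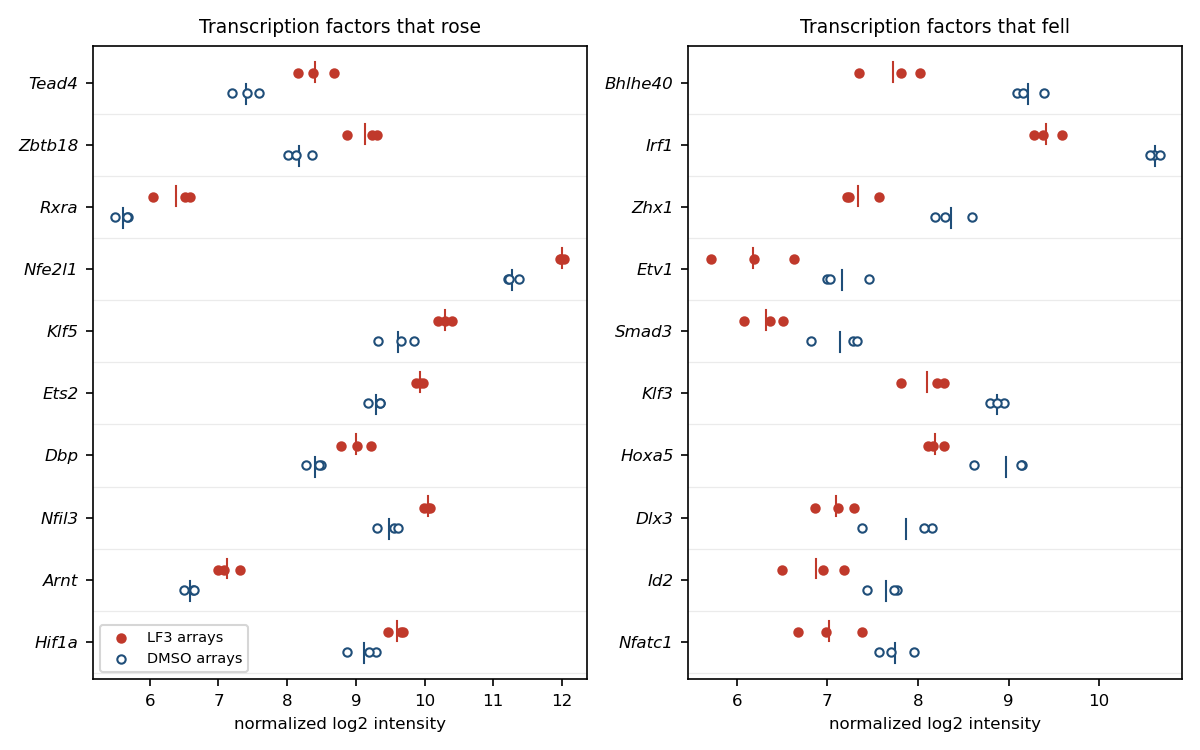
Normalized log2 intensity (horizontal axis) of 10 transcription factors that rose with LF3 (left) and 10 that fell (right). Filled points are the LF3 arrays, open points the DMSO arrays, 3 each, with ticks at group means. Irf1 has tight groups at 9.29 to 9.59 with LF3 and 10.56 to 10.67 with DMSO, while Etv1 spreads from 5.71 to 6.63 with LF3.

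Families of enzymes and structural proteins were read in the same way, with 69 of 611 genes higher (11.3%) and 59 lower (9.66%). Conjugating enzymes of detoxification had 9 of 22 higher and 1 lower (4 higher and 5 lower under median scaling, and 8 to 9 higher and 0 to 1 lower with 1 array left out). Gsta1 and Gsta2 are closely related glutathione S-transferases whose probes may share signal. Gsta1 stood at 11.19, 11.32 and 10.99 on the LF3 arrays, against 9.29, 9.13 and 9.32 on the DMSO arrays, 3.79-fold higher (limma adjusted p = 3.72e-06), and Gsta2 was 3.72-fold higher. Gsta4, which conjugates products of lipid peroxidation, stood at 9.07, 9.43 and 9.65 on the LF3 arrays, against 7.47, 7.23 and 7.06 on the DMSO arrays, 4.39-fold higher (limma adjusted p = 1.77e-06). Ugt1a6a, a glucuronosyltransferase, stood at 7.52, 7.45 and 7.99 on the LF3 arrays, against 6.45, 6.68 and 6.64 on the DMSO arrays, 2.09-fold higher (limma adjusted p = 0.000342). Isoforms of the Ugt1a locus share exons, so a probe may not tell them apart. The exception, chosen after its value was seen, was the microsomal glutathione S-transferase Mgst3, which fell by 0.51.

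Of 38 dehydrogenases and aldo-keto reductases 6 were higher (15.8%) and 5 lower (13.2%), beside 11% and 11.4% of all genes (4 higher and 8 lower under median scaling). Adh7, an alcohol dehydrogenase that oxidises retinol, stood at 12.24, 12.14 and 12.14 on the LF3 arrays, against 11.51, 11.53 and 11.45 on the DMSO arrays, and Aldh1l2, a mitochondrial enzyme of folate metabolism, at 10.65, 10.53 and 10.42 on the LF3 arrays, against 9.77, 9.75 and 9.86 on the DMSO arrays. Both were higher on all LF3 arrays, 1.6-fold and 1.67-fold. Akr1c12, an aldo-keto reductase, stood at 10.29, 10.35 and 10.08 on the LF3 arrays, against 10.82, 11.11 and 11.43 on the DMSO arrays, 1.84-fold lower (limma adjusted p = 0.00117).

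Growth arrest genes included Gadd45a, a DNA damage and stress response protein, at 10.36, 10.57 and 11.08 on the LF3 arrays, against 8.85, 8.25 and 8.55 on the DMSO arrays, 4.34-fold higher (limma adjusted p = 8.93e-06). Btg1, an antiproliferative factor, stood at 12.63, 12.68 and 12.63 on the LF3 arrays, against 11.95, 11.94 and 11.93 on the DMSO arrays, with almost no spread among the DMSO arrays, 1.63-fold higher (limma adjusted p = 0.00102). Cdkn2c, an inhibitor of Cdk4 and Cdk6, fell by 0.61, a call lost without the second DMSO array. Dusp4, a nuclear phosphatase that inactivates MAP kinases, stood at 9.83, 9.82 and 10.14 on the LF3 arrays, against 8.60, 8.82 and 8.81 on the DMSO arrays, 2.27-fold higher (limma adjusted p = 4.81e-05), and Dusp8 rose by 0.78. MAP kinases and their activators had 2 of 24 higher and 5 lower (0 higher and 10 lower under median scaling), among them Map3k14, the kinase of the alternative NF-κB route, down by 0.82, a call lost without DMSO array 3. Map2k6, which activates p38, fell by 0.63 on its brightest probe and differed by -1.18 and -1.30 on 2 dimmer probes, both past the test, the second undetected on all LF3 arrays.

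No member passed upward in a pair of calcium-binding and cytoskeletal families, beside 11% higher and 11.4% lower of all genes. The same held for other lists, among them myosins, forkhead factors and cytokine receptors. S100 proteins and annexins had 0 higher and 5 lower of 16 (0 higher and 9 lower under median scaling), and tubulins 0 higher and 4 lower of 14 (0 higher and 5 lower under median scaling). S100a11 stood at 14.11, 13.95 and 13.91 on the LF3 arrays, against 14.46, 14.60 and 14.59 on the DMSO arrays and Anxa2, a membrane-binding annexin, at 13.69, 13.40 and 13.59 on the LF3 arrays, against 13.92, 14.16 and 14.14 on the DMSO arrays. Both were lower on all LF3 arrays, 1.47-fold and 1.43-fold (limma adjusted p = 0.00345 and 0.0095). Tuba1b, an abundant α-tubulin, stood at 14.14, 14.21 and 14.15 on the LF3 arrays, against 14.66, 14.64 and 14.71 on the DMSO arrays, 1.42-fold lower (limma adjusted p = 0.00452), and the near-identical Tuba1a fell by 0.60, where cross-hybridisation cannot be told apart from a change of its own. Kinesins had 2 of 16 higher and 0 lower (1 higher and 6 lower under median scaling), Kif3c by 0.77 and Kif3a by 0.74, with -0.14 on the other Kif3a probe. The Kif3a call was lost under median scaling and with the mean of its probes.

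Ribosomal proteins and the ubiquitin and proteasome genes were read as well, beside 11% higher and 11.4% lower of all genes. Of 53 cytosolic ribosomal proteins 3 were higher and 0 lower (0 higher and 2 lower under median scaling), of 39 proteasome subunits 0 higher and 2 lower (0 higher and 7 lower under median scaling), and of 71 mitochondrial ribosomal proteins 8 higher and 4 lower (0 higher and 17 lower under median scaling). Psmb10, a catalytic subunit of the immunoproteasome, fell by 0.60 ± 0.13 (SE, limma adjusted p = 0.00638), and by 0.93 on its other probe. Ubiquitin-specific proteases had 4 of 29 higher and 0 lower (1 higher and 4 lower under median scaling), led by Usp45, a deubiquitinase of DNA repair, at 8.20, 8.39 and 8.06 on the LF3 arrays, against 7.51, 7.16 and 7.13 on the DMSO arrays, 1.94-fold higher (limma adjusted p = 0.00044). F-box proteins had 6 of 35 higher and 4 lower (1 higher and 11 lower under median scaling), with Fbxw4 up by 0.90 and Fbxl15 down by 0.77. TRIM proteins had 2 of 23 higher and 5 lower (0 higher and 9 lower under median scaling). Trim21, an intracellular antibody receptor, fell by 1.33 on its brightest probe and differed by -0.09 and 0.13 on 2 others, and its call was lost with the mean of its probes.

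**Figure D4:**
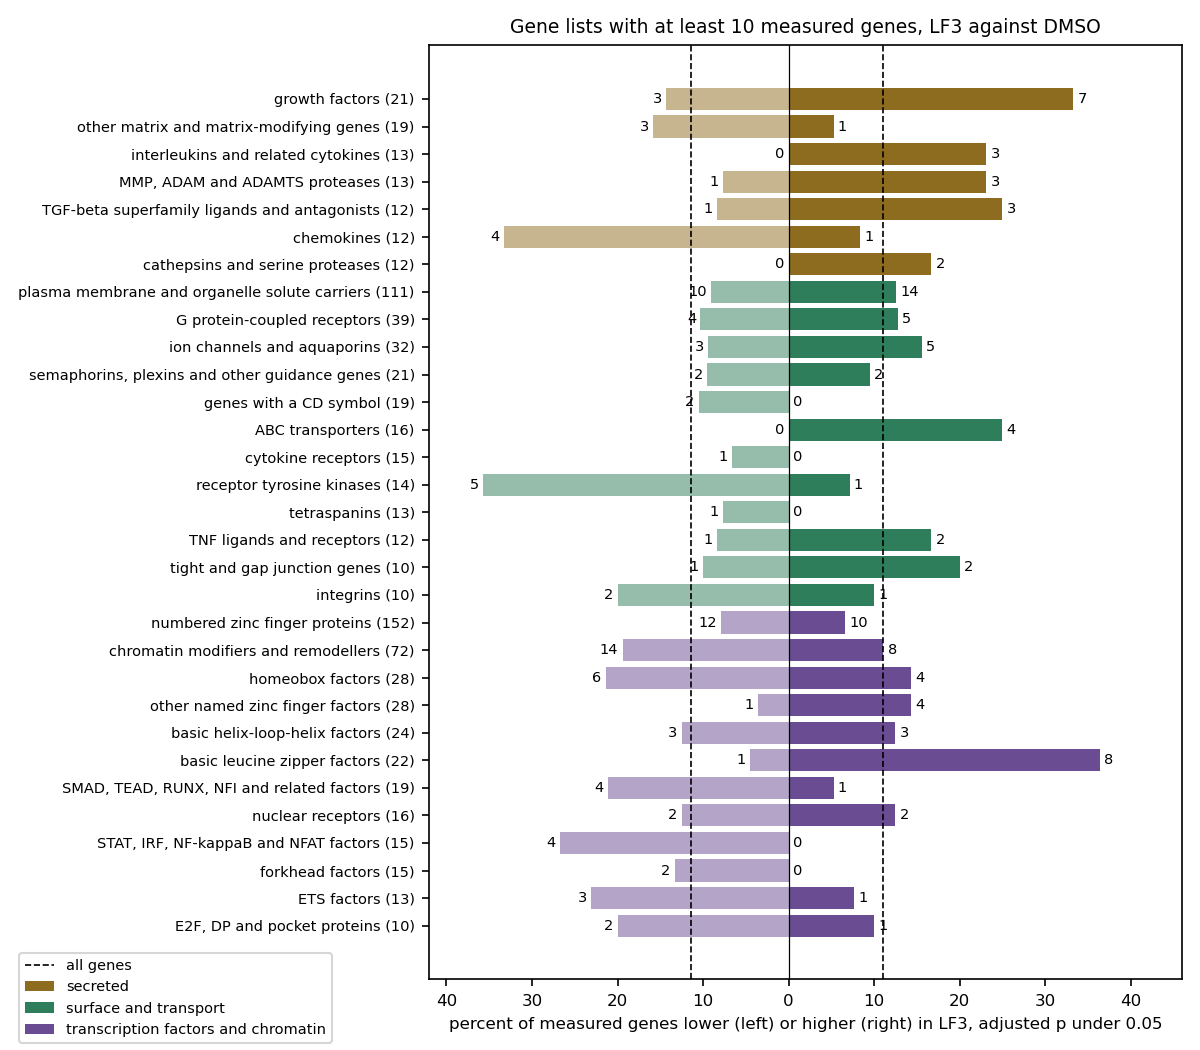
Share of measured genes that passed in each secreted, surface and transport, or transcription and chromatin list with at least 10 measured genes. Bars run left for lower with LF3 and right for higher, in percent, with counts at the bar ends and the number measured in brackets. Lists of enzyme and structural families are not shown. Dashed lines mark all genes, 11.4% lower and 11% higher. Basic leucine zipper factors (8 of 22) and growth factors (7 of 21) reach furthest right, receptor tyrosine kinases (5 of 14) and chemokines (4 of 12) furthest left.

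Detection in 1 group only was rare. Of 16593 genes, 9 were detected on all LF3 arrays and no DMSO array (0.0542%), and 50 on all DMSO arrays and no LF3 array (0.301%). All were dim, with LF3-only means of 5.56 to 6.10 and DMSO-only means of 5.34 to 6.15. The LF3 arrays detected 9939 to 10637 probes and the DMSO arrays 10204 to 10897, and the part of this difference in the 2 counts was not tested. A fold against a group without detection is a lower bound, computed against the higher of the lowest detected signal on each array and the probe's own signal. No bound reached 2-fold in either direction. Since detection in 1 group chose these genes, their separation and their p-values depend on that choice and are given as a description.

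All 9 LF3-only genes passed and none had overlapping groups, beside 22.4% and 36.8% of all genes, from which nothing is read. Grem1, given above, had the highest bound. Tcam1, a testicular cell adhesion gene, stood at 5.96, 6.12 and 5.84 on the LF3 arrays, against 5.06, 5.21 and 4.86 on the DMSO arrays, at least 1.67-fold higher (limma adjusted p = 0.000248). Taf7l, a germ cell paralogue of a TFIID subunit, stood at 5.54, 5.67 and 5.66 on the LF3 arrays, against 4.28, 4.30 and 4.31 on the DMSO arrays. Its DMSO arrays were nearly equal and the lowest of the 9 genes, and the bound was 1.31-fold (limma adjusted p = 9.52e-06). Spry4, a feedback inhibitor of receptor tyrosine kinase signalling, stood at 5.41, 5.75 and 5.71 on the LF3 arrays, against 4.64, 5.11 and 5.23 on the DMSO arrays (limma adjusted p = 0.0124), a call lost without the second LF3 array. Il4i1, a secreted amino acid oxidase, Rdh9, a retinol dehydrogenase, Gng8, a G protein γ subunit, Wdfy1 and 1700020D05Rik made up the rest, with bounds of 1.25, 1.29, 1.32, 1.48 and 1.45-fold.

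Of the 50 DMSO-only genes 29 passed and 21 did not, and 40 had no overlap between groups, counts set by the same choice (22.4% and 36.8% of all genes). Mgat3, which adds the bisecting N-acetylglucosamine to N-glycans, stood at 5.12, 4.70 and 4.30 on the LF3 arrays, against 5.83, 6.34 and 6.29 on the DMSO arrays, at least 1.73-fold lower (limma adjusted p = 0.000194). Pcyt1b, an enzyme of phosphatidylcholine synthesis, stood at 5.17, 4.94 and 5.24 on the LF3 arrays, against 5.68, 6.06 and 6.25 on the DMSO arrays, at least 1.55-fold lower (limma adjusted p = 0.00145). Hexim2, an inhibitor of the elongation factor P-TEFb, stood at 4.76, 4.69 and 5.18 on the LF3 arrays, against 5.78, 5.62 and 5.93 on the DMSO arrays, at least 1.33-fold lower (limma adjusted p = 0.00113). Cadm1, an immunoglobulin-like adhesion molecule, stood at 4.65, 5.05 and 5.24 on the LF3 arrays, against 5.47, 5.55 and 6.09 on the DMSO arrays, a call lost with no filter on dim probes and on leaving out DMSO array 3 or LF3 array 1. Eef2k, the kinase that inhibits elongation factor 2, stood at 5.03, 4.81 and 5.08 on the LF3 arrays, against 5.75, 5.60 and 5.68 on the DMSO arrays, at least 1.24-fold lower (limma adjusted p = 0.00102). Spns3, Tmem229b, Ciao1, Dusp28, Ttpal and Alk also passed, with bounds of 1.43, 1.27, 1.27, 1.27, 1.25 and 1.24-fold. Dnmbp, at 5.08, 5.20 and 5.35 on the LF3 arrays, against 5.85, 5.39 and 5.83 on the DMSO arrays, did not pass (limma adjusted p = 0.0795).

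**Figure D5:**
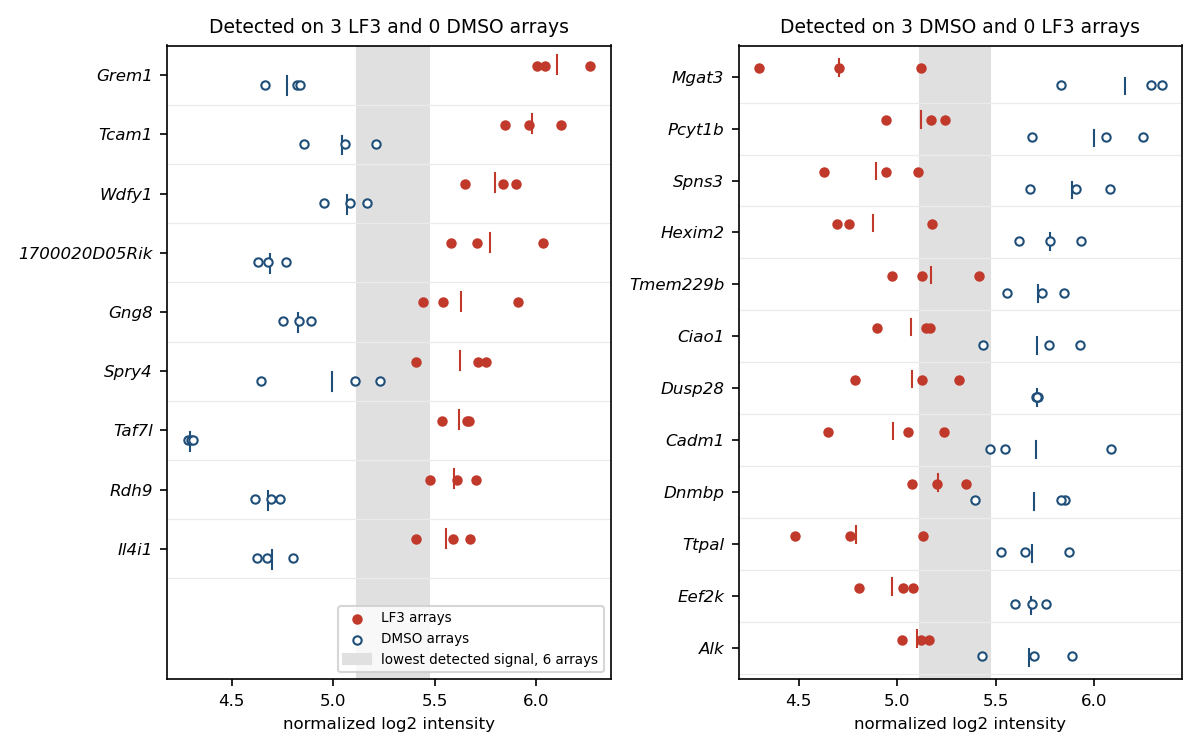
Normalized log2 intensity (horizontal axis) of the 9 genes detected on 3 LF3 and 0 DMSO arrays (left) and of the 12 with the highest bound among those detected on 3 DMSO and 0 LF3 arrays (right). Filled points are LF3 arrays, open points DMSO arrays, ticks group means, and the grey band spans the lowest detected signal of the 6 arrays. Detected values lie close to the band, within about 1 log2 step of it.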

How the data were processed

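Total RNA was labelled and hybridised to Illumina mouse bead arrays. The deposited table gives, per the file headers, the signal intensity of 25697 probes on a linear scale, with detection p-values, not normalized between arrays; the authors' deposited processed intensities, with unstated steps, served as an alternative. The submitters' processing notes name GenomeStudio 2010.1. Detection columns were matched by place beside their signal column. Of the probes 23978 had 1 symbol and 1719 none. Here limma 3.58.1 (R 4.3.3) applied normexp with an offset of 16, log2 and quantile normalization. Probes detected on at least 3 of 9 arrays were kept (10830, 42.1%), and the brightest stood for a gene. All 9 arrays entered 1 fit (lmFit, eBayes), with two-sided p-values of LF3 minus DMSO adjusted by Benjamini-Hochberg over all probes kept. Folds of dim genes are shrunk by the offset. The procedure was tested on simulated data.

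Members and lists, 67 in all, were chosen with earlier results of these data known. Genes named are the 12 largest rises and falls without overlap, up to 12 detected in 1 group only each way, and up to 4 genes per list with the lowest adjusted p. One list pattern and 1 list name were corrected after the data were seen. Replicate numbers were not used to pair the arrays, apart from the replicate block given below.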

Additional observations from a re-analysis of the deposited data

Results flagged for a closer look

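Of the 625 kept probes that carry no gene symbol, 93 were higher and 67 lower with LF3 (25.6% passed), data that the named genes leave out. The probe ILMN_1253772 stood at 7.43, 7.71 and 7.90 on the LF3 arrays, against 5.79, 5.77 and 5.70 on the DMSO arrays, a difference of 1.93 ± 0.13 on the log2 scale (SE, limma adjusted p = 1.41e-06). The probe ILMN_2735350 stood at 6.45, 6.62 and 7.12 on the LF3 arrays, against 4.94, 4.96 and 4.60 on the DMSO arrays, none of which detected it. Its measured difference was 1.90 and its level at least 2.83-fold higher (limma adjusted p = 1.01e-05). Both were picked out as the largest rises among probes without a name, and their genes are not given by the annotation used here.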

How the results depend on the processing

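Counts of genes higher and lower kept within 1.5 times their value of 810 and 835 under cyclic loess, other background corrections, filters, probe rules, variance prior, the 6 arrays alone and the authors' processed intensities. Median scaling gave 203 higher and 2140 lower, with 24 and 158 at least 2-fold, and left the median difference of 55 of 59 lists below 0, against 29 as reported. No background correction left 26 and 23 genes at least 2-fold higher and lower, and an offset of 50 left 28 and 23. Both raise the floor that dim signals share, which shrinks folds. With each array left out in turn, genes higher numbered 467 to 923 and lower 405 to 954, with 47 to 71 and 45 to 77 at least 2-fold. The lowest counts came without the second DMSO array, then the third DMSO array (476 and 447) and the second LF3 array (520 and 499).

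LF3-only genes numbered 21 at a detection p under 0.05, 16 under 0.001 and 38 where 2 or 3 arrays sufficed, and 10 to 37 with 1 array left out, 37 without the first DMSO array. DMSO-only genes numbered 116 where 2 or 3 arrays sufficed and 55 to 140 with 1 array left out, 140 without the first LF3 array and 91 without the third DMSO array. The cause was not tested. Of 219 named genes 120 kept their call in all settings that tested them, none reversed past the threshold, and 48 lost it under median scaling. Genes outside these 219, such as those chosen after their values were seen or named for a motif match alone, were not followed across settings. Of 2006 list counts 486 moved.

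Same-numbered arrays correlated at -0.13, -0.23 and 0.14 in their deviations from group means. With 3 arrays in a group, these values cannot show whether same-numbered arrays shared a culture or batch. With the replicate block 1464 genes passed, 707 higher and 757 lower, and 13 named genes lost their call. A level near the detection limit allows only a bound.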
